A study of Mus musculus with 96 samples.

Results

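Livers of phenobarbital-treated and control mice were compared after 3 months in formalin, embedding in paraffin and an overnight heated incubation of the sections in which the demodifying catalyst was left out. Libraries were chosen by their labels alone: 3 months in formalin, 18 hours at 55 °C with no organocatalyst, and RNA isolated with the Qiagen AllPrep kit. These are 12 of the 96 libraries of the series, 6 from treated mice (PB) and 6 from controls (Con), each from a different animal. PB mice were male B6C3F1 mice aged 10 to 11 weeks that drank water with 600 ppm phenobarbital for 7 days, and Con mice were of the same sex, strain and age and drank water with 0 ppm. All 12 livers were pooled portions of 3 lobes that had been frozen before fixation, so what is compared is whole tissue, and freezing, fixation and heating are common to both groups. The other 84 libraries come from the same animals in 7 other states, of which 3 are used here for comparison: untreated 3-month formalin, organocatalyst with AllPrep, and frozen liver.

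Phenobarbital acts in the liver mainly through the constitutive androstane receptor (CAR, gene Nr1i3), a nuclear receptor held in the cytoplasm until an upstream signal releases it to the nucleus. There CAR pairs with RXR alpha and switches on genes for cytochrome P450 enzymes, conjugating enzymes and transporters, with the CYP2B enzymes as the textbook response, and it shares many of these targets with the pregnane X receptor (PXR, gene Nr1i2). In rodents CAR activators also enlarge the liver and start hepatocyte division, and CAR is known to restrain gluconeogenesis and fatty acid oxidation. Formaldehyde links RNA to protein and adds groups to its bases, and heating reverses part of this.

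The heat-only libraries held 6445043 to 12141074 counted reads in PB and 8845947 to 12229833 in Con, and 18927 to 20657 genes had a count in PB against 19478 to 20416 in Con. Levels below are CPM, counts per 1000000 counts of the library after trimmed-mean scaling of library sizes, not corrected for gene length. Liver identity was clear in both groups: all 34 genes on a list of proteins secreted by hepatocytes could be tested, and albumin (Alb) averaged 17933 ± 6570 CPM in PB and 32424 ± 4445 CPM in Con (SD, n = 6 each). Of 9 measures of the libraries, the share of counts on mitochondrially encoded genes was the only one that differed between groups at an adjusted p under 0.05 and is described with those genes below. The other 8 measures, among them depth, GC content, transcript length and small RNA share, had adjusted exact permutation p of 0.0684 or more.

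Across 13683 genes tested, 483 were higher and 205 lower with phenobarbital at an adjusted p under 0.05 (edgeR quasi-likelihood test, Benjamini-Hochberg over all genes tested), or 3.53% and 1.5% of the table. These are the backgrounds against which the counts below stand. All 6 PB libraries lay above all 6 Con libraries for 325 genes (2.38%) and below them for 165 (1.21%). Rises were larger than falls: 203 of the higher genes but 27 of the lower genes changed by at least 2-fold, and the median log2 fold change (PB over Con) was 0.88 among the higher genes and -0.54 among the lower ones. The median over all genes was 0.00. In the 12 fits that left out 1 library the lower count varied more, in proportion, than the higher one. It was 84 without control 8A, 106 without 82B, 129 without 8C, 135 without 8D, 138 without 21C and 142 without 90C. It was 159 without treated 18B, 204 without 18D, 100 without 20B, 257 without 20D, 111 without 75C and 137 without 80B. The higher count stayed between 325 and 519. Each such fit had fewer libraries, hence less power, and applied the count filter anew, so its tested genes can differ from those of the main fit.

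The CYP2B, CYP2C and CYP3A enzymes, the monooxygenases through which phenobarbital is known to speed drug breakdown, rose most. Of 18 that could be tested, 11 were higher and 0 lower, and their median log2 fold change was 3.18 (the remaining 11 of 29 listed members had too few counts). Cyp2b10 (ENSMUSG00000030483, chr7:25897620-25926624, GRCm38) had 930, 1357 and 2102 CPM as lowest, median and highest PB value, against 0, 0 and 0.52 CPM in Con. In Con 4 of the 6 libraries had no Cyp2b10 count and the Con group held 7 counts in all, so the fitted log2 fold change of 13.48 ± 0.46 (SE) rests on very few control reads. Cyp2c66 had 13.9, 17.6 and 26.3 CPM in PB and 0 counts in every Con library, so that, setting Con to a floor of 3 counts in the whole group, it was at least 382-fold higher.

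Cyp3a11, an abundant CYP3A enzyme in the mouse, had 3092, 4690 and 7740 CPM in PB against 20.6, 102 and 160 CPM in Con. No PB library came near the Con range, and the log2 fold change was 5.86 ± 0.46 (adjusted p = 1.22e-06). Cyp2c55 had 388, 440 and 706 CPM in PB against 0.216, 1.68 and 2.85 CPM in Con (log2 fold change 8.25 ± 0.36), and Cyp2c29, a gene already abundant in Con, had 2759, 3701 and 5246 CPM in PB against 64.7, 222 and 294 CPM in Con (4.27 ± 0.34). Cyp2c54 (4.53 ± 0.32) and the pseudogene Cyp2c53-ps (8.15 ± 0.34) lay in the same cluster on chromosome 19 and rose as well. Other members of that family did not pass: Cyp2c70 averaged 748 ± 130 CPM in PB and 709 ± 174 CPM in Con, and Cyp2c67 130 ± 25.3 CPM in PB and 191 ± 52.6 CPM in Con (log2 fold change -0.55 ± 0.18, adjusted p = 0.0915, and 0.0451 without control 82B). The CYP2C genes are near copies of each other and the treatment of reads matching several of them is not stated in the labels, so the split among paralogs and the pseudogene is uncertain.

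**Figure D1:**
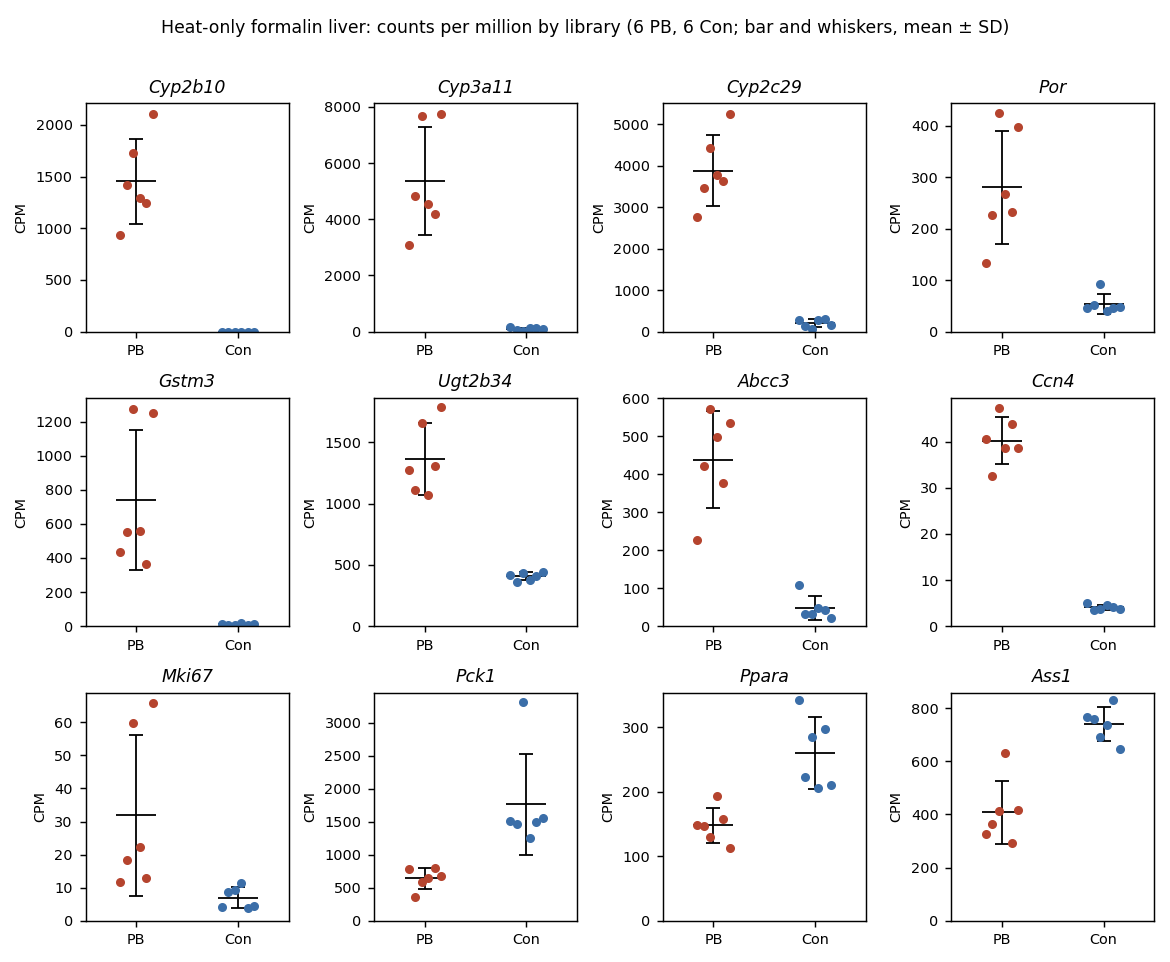
CPM (linear axes from 0) of 12 genes in the 6 PB and 6 Con heat-only libraries; each point is 1 animal, and the bar and whiskers are the mean ± SD. PB and Con points do not overlap in any of the 12 panels: 9 genes are higher in PB, and Pck1, Ppara and Ass1 are lower.

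The window of 250 bases before the RefSeq start of Cyp3a11 (GRCm38.p6, chr5:145879855-145880104, minus strand) is shown because the receptors of this response bind repeats of a 6-base half-site, written AGGTCA or AGTTCA; capitals mark its matches, 1 AGGTCA on the printed strand and 1 AGTTCA on the other.
Cyp3a11: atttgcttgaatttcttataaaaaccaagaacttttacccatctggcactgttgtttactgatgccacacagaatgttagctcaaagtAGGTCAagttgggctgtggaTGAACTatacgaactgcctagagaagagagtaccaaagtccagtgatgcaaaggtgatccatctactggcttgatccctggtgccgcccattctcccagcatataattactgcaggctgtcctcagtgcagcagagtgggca
AGGTCA occurs on either strand in 3750 of 27025 such windows (13.9%) and AGTTCA in 3209 (11.9%). Among the called CYP2B, CYP2C and CYP3A genes with a RefSeq window, 4 of 10 held AGGTCA and 2 of 10 held AGTTCA. Over all listed members with a window, called or not, it was 11 of 27 and 7 of 27, so called genes did not stand out from their family. The windows of Cyp2b10 and Cyp2c55 held neither, and 0 of the 10 held a pair of half-sites in direct repeat with 4 bases between them, an arrangement found in 5 of the 27025 windows. The best-known phenobarbital-responsive enhancer of the mouse CYP2B genes lies farther upstream than these windows reach.

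Other P450 genes and their partners were mixed, with 8 higher and 2 lower of 29 (median log2 fold change 0.06), and 1 lower when any library but treated 20D was left out. Por, the reductase that passes electrons to all microsomal P450 enzymes, had 134, 250 and 424 CPM in PB against 39.4, 46.8 and 92.6 CPM in Con (log2 fold change 2.38 ± 0.27). Cyp2a5 (3.22 ± 0.29), Cyp1a2 (1.62 ± 0.15) and the epoxide hydrolase gene Ephx1 (adjusted p = 5.54e-05) rose, each without overlap between groups. Cyp2d40 fell, with 20.6, 27.8 and 33.3 CPM in PB against 49.6, 68 and 83.9 CPM in Con (-1.31 ± 0.13, adjusted p = 2.36e-05). Cyp2e1, which metabolises ethanol, averaged 3628 ± 578 CPM in PB and 3481 ± 402 CPM in Con and was not called. Of 15 genes of heme synthesis and breakdown 0 passed in edgeR, DESeq2 or limma voom (1 at an unadjusted p under 0.05). Alas1, the rate-limiting enzyme of that synthesis, had 75.3, 214 and 454 CPM in PB against 30.6, 98 and 491 CPM in Con, with overlapping groups (0.63 ± 0.58, adjusted p = 0.613).

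Among enzymes that conjugate drugs, fewer than 1 in 2 genes of each list were higher. Of 20 genes of glucuronidation, most of them UDP-glucuronosyltransferases that attach glucuronic acid, 9 were higher and 1 lower (median 0.42). The lower call was lost without control 21C, 8A, 8C or 8D or treated 20B, 75C or 80B. Ugt2b34 had 1068, 1288 and 1791 CPM in PB against 359, 414 and 439 CPM in Con (log2 fold change 1.75 ± 0.14, adjusted p = 1.42e-06), and Ugt2b35 (1.62 ± 0.16) and the bilirubin enzyme gene Ugt1a1 (1.19 ± 0.16) rose too. Genes of the UGT1A cluster share their last exons, so Ugt1a1 and Ugt1a9 (1.15 ± 0.26) cannot be fully separated by counts. Glutathione transferases gave 8 higher and 0 lower of 21 (median 0.53; 1 lower without treated 20D). Gstm3 had 367, 557 and 1275 CPM in PB against 4.64, 9.44 and 16.6 CPM in Con (6.21 ± 0.41), and its paralog Gstm1 1066, 1696 and 2182 CPM in PB against 140, 207 and 305 CPM in Con (2.89 ± 0.22). These paralogs are alike in sequence, so the split of counts between them is uncertain, as for the CYP2C genes. Mgst1, the microsomal enzyme, lay higher in every PB library (2253 ± 134 CPM in PB, 1742 ± 154 CPM in Con) without passing the edgeR test (0.37 ± 0.11, adjusted p = 0.0662).

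Sulfotransferases and the enzymes of their cofactor gave 3 higher and 0 lower of 9: Sult1c2 (1.51 ± 0.20), Sult1d1 (1.04 ± 0.16) and Papss2, which makes the sulfate donor (0.76 ± 0.14). Enzymes that split esters, oxidise aldehydes or reduce ketones (34 tested) were higher in 12 cases and lower in 0 (median 0.33). The carboxylesterase gene Ces2a had 274, 637 and 819 CPM in PB against 46.2, 64.2 and 77.9 CPM in Con (3.28 ± 0.24), and Aldh1a1, which oxidises retinal, 934, 1400 and 2260 CPM in PB against 337, 504 and 581 CPM in Con (1.63 ± 0.20). Akr1b7 was scarce, with 2.07, 3.75 and 14.7 CPM in PB and 5 counts in all of Con (6.19 ± 0.73). Of 19 transporters 4 were higher and 2 lower. The basolateral export pump gene Abcc3 had 227, 460 and 573 CPM in PB against 21.7, 36.8 and 109 CPM in Con (3.21 ± 0.35), and the uptake carrier gene Slco1a4 averaged 64.1 ± 20.3 CPM in PB and 22.1 ± 9.1 CPM in Con (1.53 ± 0.24). Without control 8A or treated 20B 0 transporters were lower, and 1 without control 21C, 8C or 8D or treated 18B, 75C or 80B.

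Antioxidant genes driven by NRF2 gave 3 higher and 0 lower of 19, with Nqo1 at 2.68 ± 0.77 CPM in PB and 1.16 ± 0.422 CPM in Con (log2 fold change 1.22 ± 0.27, adjusted p = 0.0174) and Srxn1 at 1.18 ± 0.20. The receptors held few calls: of 23 xenobiotic receptors and partners, 1 was higher and 1 lower. The higher one was Ahr, the dioxin receptor, with 137, 171 and 192 CPM in PB against 60.5, 66 and 80.7 CPM in Con (1.26 ± 0.11, adjusted p = 5.26e-06). Nr1i3 averaged 58.8 ± 16.8 CPM in PB and 86 ± 37.1 CPM in Con and Nr1i2 55.8 ± 9.14 CPM in PB and 46.2 ± 2.68 CPM in Con. Neither passed (adjusted p = 0.206 for Nr1i3 and 0.173 for Nr1i2), although Nr1i2 did without treated 18B (0.36, adjusted p = 0.0283). The lower gene was Foxa3, a liver transcription factor, with 36.3 ± 9.51 CPM in PB and 59.4 ± 12.3 CPM in Con (-0.71 ± 0.17, adjusted p = 0.0243), a call lost without control 21C, 8A or 8C or treated 20B (adjusted p of 0.0503, 0.056, 0.0506 and 0.0581).

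Genes of mitosis and the cell cycle rose together, from low levels. Of 28 that could be tested, 24 were higher and 0 lower, with a median log2 fold change of 2.35, and in 19 of them all PB libraries lay above all Con libraries. The proliferation marker Mki67 had 11.7, 20.4 and 65.9 CPM in PB against 3.94, 6.61 and 11.4 CPM in Con (log2 fold change 2.19 ± 0.45, adjusted p = 0.0106), so the groups were apart by a narrow margin. The spindle gene Hmmr had 1.86, 4.19 and 18.1 CPM in PB against 0, 0.271 and 0.697 CPM in Con (4.48 ± 0.71). Cdc20, which activates the anaphase-promoting complex, had 1.86, 2.98 and 11.9 CPM in PB against 0.216, 0.476 and 1.13 CPM in Con (3.20 ± 0.58), and the cyclin gene Ccnb1 rose by 3.71 ± 0.62. Spc25 (0.23 ± 0.27) and Kif23 (1.22 ± 0.37, adjusted p = 0.0752) did not pass.

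A pair of treated animals carried most of these reads. Summed over the list and given as CPM of the library total, without scaling, mitotic genes had 431 in treated 20B and 399 in treated 80B, 90.4 to 150 in the other 4 PB libraries and 36.6 to 63.9 in Con. The same pair stood highest in the other states of the same livers: 428 and 414 in frozen liver against 98.4 to 139 in the other 4 PB animals, 484 and 385 with the organocatalyst against 94.2 to 159, and 321 and 304 in untreated 3-month formalin against 87.9 to 116. Every PB library lay above every Con library in all 4 states. The count of mitotic genes called was 21 without treated 20B and 20 without treated 80B, so neither animal alone made the rise. Treated 20B and 80B were also highest of the PB group in Gstm3 (1275 and 1248 CPM, with 367 to 559 CPM in the others) and Cyp3a11 (7680 and 7740 CPM, with 3092 to 4824 CPM), and had its deepest libraries and lowest mitochondrial shares.

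**Figure D2:**
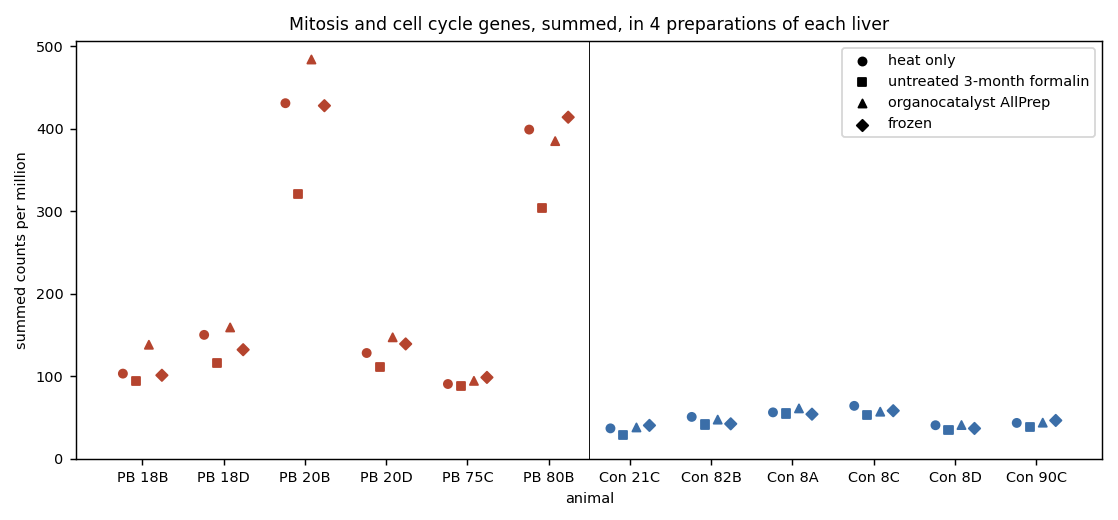
CPM of the library total, summed over the mitosis and cell cycle list (y axis, linear from 0) for the 6 PB animals and, right of the line, the 6 Con animals (x axis), with a marker for each of 4 preparations of the liver. Treated 20B and 80B reach 304 to 484 in all 4, the other PB animals 87.9 to 159, and Con animals lie below all of them.

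Genes that act at mitosis often carry a CHR element, written TTTGAA, with CCAAT boxes near their start, and the windows of Ccnb2 (cyclin B2; chr9:70421555-70421804, minus strand) and Cdc20 (chr4:118437344-118437593, minus strand) from RefSeq (GRCm38.p6) are shown for that reason, with matches on either strand in capitals.
Ccnb2: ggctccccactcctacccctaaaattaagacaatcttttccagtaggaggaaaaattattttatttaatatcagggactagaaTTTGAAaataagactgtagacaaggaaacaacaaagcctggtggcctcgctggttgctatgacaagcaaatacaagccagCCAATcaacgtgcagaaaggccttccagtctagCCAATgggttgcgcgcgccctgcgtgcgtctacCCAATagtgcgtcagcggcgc
Cdc20: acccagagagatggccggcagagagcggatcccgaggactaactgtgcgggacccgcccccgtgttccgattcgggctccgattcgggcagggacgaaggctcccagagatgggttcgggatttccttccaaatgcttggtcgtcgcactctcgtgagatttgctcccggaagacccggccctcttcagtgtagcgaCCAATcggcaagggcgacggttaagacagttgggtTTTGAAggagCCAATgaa
Of the 20 called mitotic genes with a window, 17 held CCAAT, 8 held TTTGAA and 8 held both, and of all 27025 windows 9277 (34.3%), 4391 (16.2%) and 1543 (5.71%) did. Over all 33 listed mitotic genes with a window, called or not, it was 25, 11 and 9. Among the 9818 windows of tested genes it was 3594 (36.6%), 1061 (10.8%) and 399 (4.06%). Of the 27 windows of listed CYP2B, CYP2C and CYP3A genes, 9 held CCAAT, 11 TTTGAA and 3 both. TTTGAA alone was therefore no rarer there (40.7%) than in the mitotic list (33.3%). The letters were matched on both strands, and the motifs do not overlap each other in the 2 windows shown. In Ccnb2 TTTGAA begins at position -167 from the start, upstream of the CCAAT matches at -87, -54 and -21. In Cdc20 it begins at -18, between CCAAT matches at -53 and -8. Whether any match is a working element was not tested.

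Of 30 DNA replication genes 8 were higher and 0 lower, and 22 were not called, with a median log2 fold change of 0.61. Uhrf1, which keeps DNA methylation through replication, had 1.97, 4.34 and 9.48 CPM in PB against 0.41, 1.12 and 1.57 CPM in Con (2.31 ± 0.37). Ccne2, cyclin E2, rose by 1.86 ± 0.31 and the transcription factor gene E2f2 by 1.44 ± 0.19. The number called was 5 without control 21C or control 8A and 4 without treated 20B or treated 80B. Of 19 replication-dependent histone genes 0 passed in edgeR or limma voom (5 at an unadjusted p under 0.05), with a median of 0.17, and 48 more were too low to test. Without control 8C or treated 18B 1 was higher.

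Of 24 genes linked to growth under CAR, 4 were higher and 1 lower. The members were chosen with earlier results of these data known, so this count only describes the list. Growth genes on it such as Gadd45a, Myc, Ccnd1, Mdm2, Egfr and Yap1 were not called. Ccn4, a secreted Wnt target, had 32.5, 39.6 and 47.3 CPM in PB against 3.54, 4.01 and 4.92 CPM in Con (3.28 ± 0.12, adjusted p = 1.73e-10). Tsku, a secreted protein of the liver, averaged 160 ± 46.4 CPM in PB and 26.5 ± 8.64 CPM in Con (2.60 ± 0.24). Gadd45b, an early CAR target, did not pass the count filter of the main fit and so has no test here. Its PB and Con libraries did not overlap (0.759 to 6.21 CPM in PB, 0 to 0.574 CPM in Con). The imprinted noncoding RNAs Meg3 (2.12 ± 0.33) and Rian (2.33 ± 0.39) rose in 5 of the 6 PB animals: treated 80B had 3.68 CPM of Meg3, inside the Con range of 2.37 to 5.14 CPM, while the other 5 had 14.7 to 22 CPM. Rian was low in the same animal, at 3.42 CPM with 9.05 to 25.2 CPM in the other 5 and 1.84 to 5.12 CPM in Con.

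Other large rises were Nebl, a muscle-type actin-binding protein, with 19.3, 38.9 and 105 CPM in PB against 0.689, 0.914 and 1.08 CPM in Con (5.92 ± 0.45), and Krt4, an epithelial keratin, with 6.34 to 13.9 CPM in PB. Krt4 had 591 counts over PB and 3 over Con, a ratio of 214 with a 95% exact counting interval of 72.9 to 1041. Falls were ranked among called genes with at least 5 CPM and no overlap between groups, passing over predicted genes. The largest of these was in Ntrk2, the receptor for brain-derived neurotrophic factor. It had 2.45, 3.06 and 6.8 CPM in PB against 9.07, 25 and 34 CPM in Con (-2.61 ± 0.32, adjusted p = 0.000127). Ctcflos, a transcript antisense to Ctcfl, fell too (-1.87 ± 0.23). Library strandedness is stated but not whether the counting used it.

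**Figure D3:**
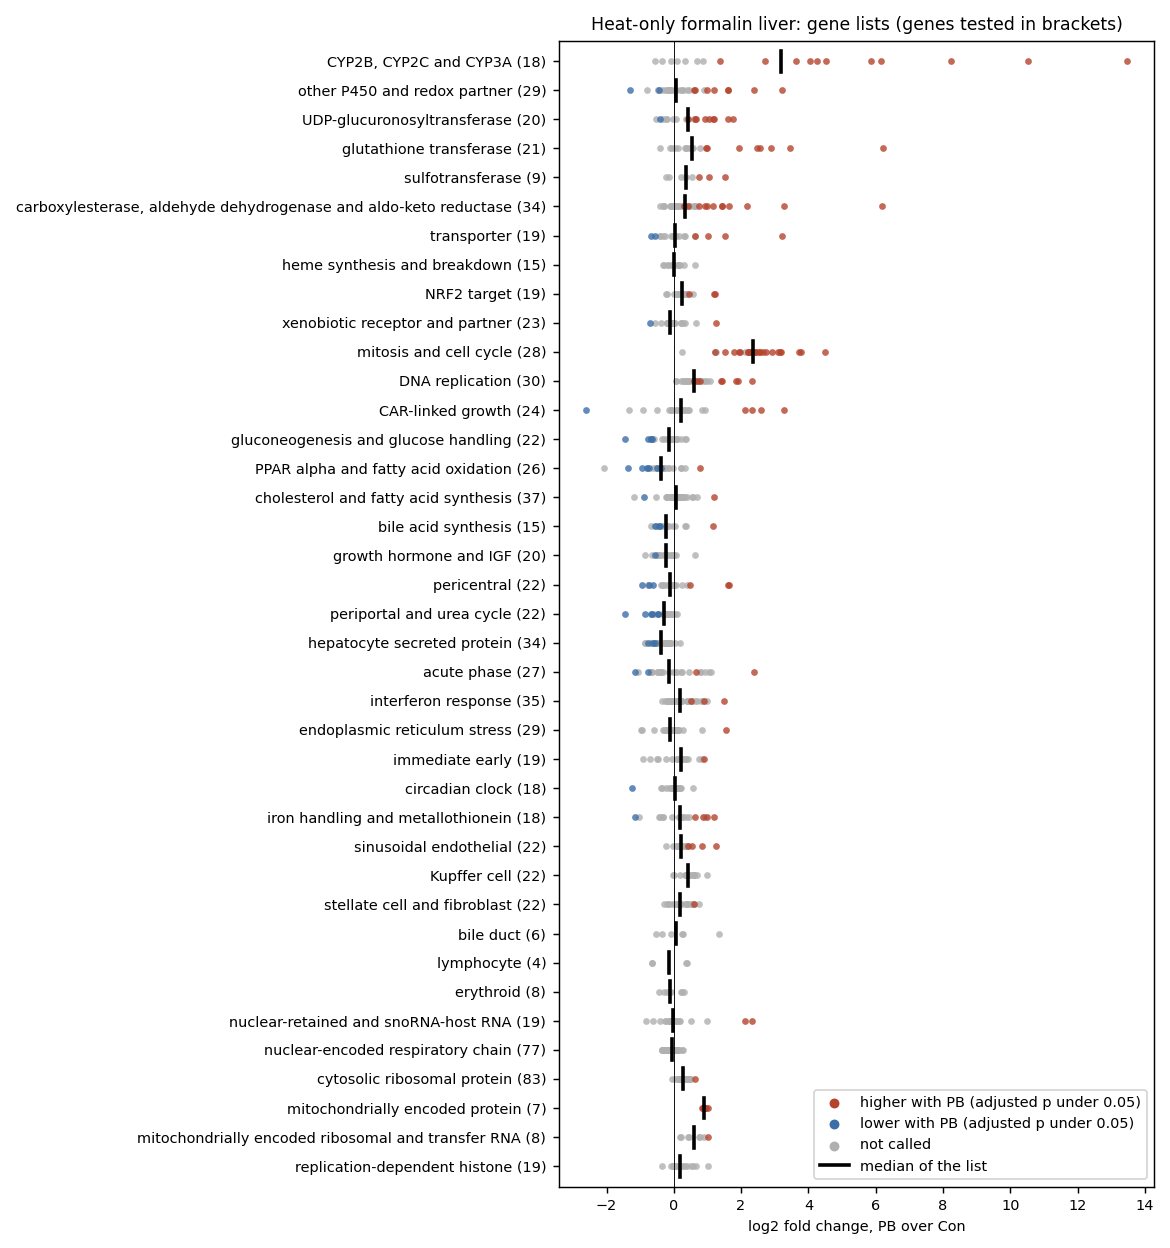
Log2 fold change of PB over Con (x axis) of every tested gene of 39 lists (rows, with genes tested in brackets); red points were higher and blue points lower at an adjusted p under 0.05, grey points were not called, and the black tick is the median of the list. The CYP2B, CYP2C and CYP3A list (median 3.18) and the mitosis list (2.35) stand farthest right, and most lists lie near 0.

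Several metabolic lists held more lower than higher genes. Of 22 genes of gluconeogenesis and glucose handling, 0 were higher (1 without control 21C) and 4 lower. Pck1, which commits carbon to glucose synthesis, had 360, 661 and 805 CPM in PB against 1255, 1498 and 3306 CPM in Con (log2 fold change -1.45 ± 0.24, adjusted p = 0.00236). Fbp1, a later step of the pathway, averaged 294 ± 57.1 CPM in PB and 461 ± 46.2 CPM in Con (-0.65 ± 0.13), and the insulin signalling gene Irs2 fell by 0.77 on the log2 scale. Ldha, lactate dehydrogenase, which was named for the size of its fall, had 154, 243 and 326 CPM in PB against 396, 489 and 532 CPM in Con (adjusted p = 0.00225). With the mitochondrial share of each library as a covariate, the calls of Fbp1, Irs2 and Ldha were lost (log2 fold changes -0.43, -0.59 and -0.51, adjusted p = 0.157, 0.0914 and 0.0871), and 1 gene of the list was lower. Over all genes that fit gave 563 higher and 138 lower, against 483 and 205 in the main fit. The share of 5 PB libraries lay above all Con libraries. Here and below, this fit therefore cannot separate the share from the treatment, and a call lost in it has no set cause.

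PPAR alpha and its fatty acid oxidation targets gave 1 higher and 6 lower of 26 (median -0.39). Ppara itself had 113, 147 and 194 CPM in PB against 206, 254 and 342 CPM in Con (-0.81 ± 0.15, adjusted p = 0.00476), and Cpt1a, the entry step of mitochondrial fatty acid oxidation, averaged 296 ± 30.7 CPM in PB and 499 ± 112 CPM in Con. Plin5, a lipid droplet protein of oxidative tissue, fell with 10.4, 12.5 and 13.2 CPM in PB against 21.2, 22.5 and 26.4 CPM in Con (-0.93 ± 0.09). The number of lower genes in this list was 3 without control 21C, 82B or 8A, 2 without treated 75C and 11 without treated 20D, and 2 with the mitochondrial share as a covariate. The higher call was lost without control 21C, 82B, 8C or 90C or treated 20B or 80B.

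Lipid synthesis stayed mixed. Of 37 genes of cholesterol and fatty acid synthesis 1 was higher and 1 lower, the lower one being the desaturase gene Fads2 (189 ± 46.9 CPM in PB, 349 ± 25 CPM in Con, -0.88 ± 0.14). The higher call, of the lipogenic gene Thrsp (1.19 ± 0.28, adjusted p = 0.0231), was lost without control 82B, 8A or 90C (adjusted p of 0.0558, 0.0585 and 0.0529). Scd1 had 1237, 5836 and 8821 CPM in PB against 8291, 11948 and 20343 CPM in Con and was not called (-1.19 ± 0.39, adjusted p = 0.101). Of 15 bile acid genes 1 was higher and 3 lower: the higher one, Akr1d1, which reduces the steroid ring, had 198, 220 and 332 CPM in PB against 81.6, 108 and 145 CPM in Con (1.17 ± 0.17). The lower count there was 0 without control 82B or 8A and 1 without control 8C, 8D or 90C or treated 20B, 75C or 80B. Cyp7a1, whose enzyme sets the pace of the classic pathway, averaged 37.7 ± 12.4 CPM in PB and 60.1 ± 36.9 CPM in Con and was not called. Of 20 growth hormone and IGF genes 0 were higher and 1 lower. That call was lost without control 82B, 8A, 8C or 8D or treated 18D, 20B or 80B, 2 were lower without treated 18B, and 1 was higher without control 21C or treated 80B.

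Along the liver lobule, 6 of 22 periportal and urea cycle genes were lower and 0 higher (median -0.28; 3 lower without control 8A), against 3 higher and 3 lower of 22 pericentral genes. Ass1, the urea cycle enzyme argininosuccinate synthase, had 293, 389 and 632 CPM in PB against 645, 748 and 831 CPM in Con (-0.86 ± 0.16, adjusted p = 0.00491; 0.119 with the mitochondrial share as a covariate, where 2 genes of the list were lower), and the amino acid carrier gene Slc38a4 fell by 0.64 on the log2 scale. Cps1, the first urea cycle enzyme, averaged 3272 ± 613 CPM in PB and 4090 ± 368 CPM in Con and was not called. Of the 3 pericentral genes that rose 2, Cyp1a2 and Aldh1a1, encode metabolising enzymes, and those that fell included Notum, an inhibitor of Wnt (12.6 ± 4.36 CPM in PB, 24.2 ± 3.62 CPM in Con, -0.95 ± 0.19). The pericentral glutamine synthetase gene Glul averaged 663 ± 73.6 CPM in PB and 818 ± 106 CPM in Con and was not called.

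Secreted plasma proteins gave 0 higher and 3 lower of 34 (median -0.39), and 32 of the 34 fitted changes were negative. Itih2, a carrier of hyaluronan, had 441, 550 and 756 CPM in PB against 909, 968 and 1030 CPM in Con (-0.76 ± 0.13, adjusted p = 0.00257; 0.0871 with the mitochondrial share as a covariate). Alb lay lower in PB without passing in edgeR (-0.85 ± 0.24, adjusted p = 0.054, and 0.017 without treated 20D). Summed over the list, secreted protein genes had 78341 to 144864 CPM in PB and 135026 to 153078 CPM in Con, and the PB libraries with the lowest sums, 18B and 18D, had the highest mitochondrial shares. The count of lower genes was 1 without control 82B, 8A, 8C or 8D and 6 without treated 20D, and with the mitochondrial share as a covariate it was 0 and the median 0.01. Acute phase genes gave 2 higher and 2 lower of 27: Hamp, the iron hormone hepcidin, averaged 119 ± 42.7 CPM in PB and 262 ± 76 CPM in Con (-1.14 ± 0.25) and Il6ra, the interleukin 6 receptor, 55 ± 8.77 CPM in PB and 93.3 ± 13.9 CPM in Con (-0.76 ± 0.12). Both calls of higher acute phase genes were lost when control 21C, 82B, 8A, 8C, 8D or 90C or treated 20B, 75C or 80B was left out.

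Stress and immune lists held few calls. Interferon response genes gave 3 higher and 0 lower of 35, and 1 higher without control 21C, 8A, 8C, 8D or 90C or treated 20B or 75C, and 5 higher without treated 20D. The chemokine gene Cxcl10 kept its call in every alternative run, at 1.82, 2.39 and 3.28 CPM in PB against 0.394, 0.887 and 1.49 CPM in Con (adjusted p = 0.00592). Trib3, a stress-induced pseudokinase, was the single call among 29 endoplasmic reticulum stress genes, where 2 were called without control 8C (10.3 ± 5.28 CPM in PB, 3.46 ± 0.87 CPM in Con, 1.56 ± 0.29), and Klf6 that among 19 immediate early genes (0.89 ± 0.19), where 3 were called without control 8C and 2 without treated 18D. Circadian genes gave 0 higher and 1 lower of 18. The lower one, the period gene Per1 (-1.23 ± 0.32, adjusted p = 0.036), lost its call without control 82B, 8A or 8C or treated 18B, 18D, 20B, 75C or 80B (adjusted p of 0.0502 to 0.0855). Iron genes gave 4 higher and 1 lower of 18, with the transferrin receptor gene Tfrc at 48.4, 71.7 and 132 CPM in PB against 22.6, 35.4 and 43.6 CPM in Con (1.20 ± 0.24) and the ferritin light chain gene Ftl1 at 0.99 ± 0.18. Without control 82B 2 iron genes were higher.

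Markers of the other cells of the liver were present in both groups, with 0 of the 22 markers each for sinusoidal endothelium, Kupffer cells and stellate cells and fibroblasts at 0 counts. Endothelial markers gave 4 higher and 0 lower of 22 (median 0.20), with summed levels of 1073 to 1460 CPM in PB and 857 to 1307 CPM in Con. Their median was 0.36 in untreated 3-month formalin, 0.23 with the organocatalyst and -0.02 in frozen liver. Lyve1, a hyaluronan receptor, had 11.4, 17.5 and 23.8 CPM in PB against 4.25, 7.33 and 10.6 CPM in Con (1.24 ± 0.21), and the receptor kinase gene Tie1 20.5, 22.1 and 29.1 CPM in PB against 10.9, 12.1 and 15.9 CPM in Con (0.85 ± 0.12), while Stab2 averaged 160 ± 40.6 CPM in PB and 190 ± 26.4 CPM in Con. Kupffer cell markers gave 0 higher and 0 lower of 22 in edgeR (6 at an unadjusted p under 0.05; 1 higher in DESeq2 and in limma voom), although 21 of 22 fitted changes were positive (median 0.43; sums of 567 to 1073 CPM in PB and 371 to 847 CPM in Con). Without treated 18D 1 was higher, and with the mitochondrial share as a covariate 14 were. Stellate cell and fibroblast markers gave 1 higher of 22, the matrix gene Sparc (0.59 ± 0.13), and 2 without control 8D or treated 18D, with sums of 748 to 923 CPM in PB and 593 to 892 CPM in Con. In edgeR, DESeq2 and limma voom 0 bile duct, lymphocyte and erythroid markers passed (6, 4 and 8 tested in edgeR, with 2, 1 and 0 at an unadjusted p under 0.05). In bulk tissue fewer cells of a type and less RNA per cell cannot be told apart, and the part of cell makeup in the changes above was not tested.

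Mitochondrially encoded genes, which the mitochondrion transcribes from its own genome, took up more of the PB libraries. Their share of counts was 16.5% in treated 18B, 13.1% in 18D, 10.2% in 75C, 9.81% in 20D, 8.09% in 80B and 6.88% in 20B, against 4.96% to 7.19% in Con. All but treated 20B lay above all Con libraries. The means were 10.76% ± 3.517 in PB and 5.815% ± 0.897 in Con (SD, n = 6 each, exact permutation test, two-sided p = 0.00433, adjusted p = 0.039 over 9 library measures, with 0.00216 the smallest p that 924 splits allow). The difference of 4.94 percentage points stayed between 3.79 and 5.72 points when 1 library was left out. With the same adjustment over 9 measures, the adjusted exact permutation p was then 0.039 without control 90C or treated 20B. It was 0.0584 without treated 80B and 0.0779 without any of the other 9 libraries, so 10 of 12 omissions ended the call. Each omission also leaves fewer splits, which raises the smallest p the test can give. The unadjusted exact permutation p was 0.00433 where the call held and 0.00866 in the other 10. A lost call therefore does not by itself show a smaller difference, which was 5.48 points without treated 80B and 3.79 without treated 18B.

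All 7 mitochondrial protein genes with enough counts were higher, and they changed by nearly the same amount (log2 fold changes 0.84 to 1.02). mt-Nd1, a core subunit of complex I, had 8538, 11030 and 20291 CPM in PB against 5479, 6005 and 8243 CPM in Con (1.02 ± 0.21, adjusted p = 0.0121). mt-Nd6, which lies on the other strand of the mitochondrial genome, had 182, 240 and 499 CPM in PB against 116, 158 and 172 CPM in Con (0.89 ± 0.21, adjusted p = 0.0244), and mt-Tm, a methionine transfer RNA gene, 21, 25.1 and 40.1 CPM in PB against 10.6, 13.4 and 20.1 CPM in Con (1.02 ± 0.19), the 1 call among 8 such transfer RNA genes (2 without control 90C). mt-Co1, the catalytic subunit of cytochrome oxidase, had 30854, 42661 and 72550 CPM in PB against 22533, 25669 and 32110 CPM in Con, with overlapping groups (0.84 ± 0.23, adjusted p = 0.0458). The other 6 protein genes of that genome held between 0 and 15 counts over the 6 libraries of a group. The cause was not tested, so the share given above is that of the genes counted and not of the whole mitochondrial genome, and the mitochondrial ribosomal RNAs are not analysed here.

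The calls of these genes were close to the threshold. Of the 7, 2 passed without control 82B or control 8A, 1 without control 8C or control 8D, 4 without treated 18B or treated 75C and 3 without treated 18D, while the median log2 fold change stayed between 0.71 and 1.02. Without both 18B and 18D, an alternative chosen after seeing the data, 2 passed and the median was 0.56. Nuclear genes for the respiratory chain, whose proteins sit in the same complexes, gave 0 higher and 0 lower of 77 in edgeR (8 at an unadjusted p under 0.05; 2 lower in DESeq2 and 4 in limma voom), with a median of -0.06 (3 lower without treated 20D and 2 without treated 80B). Cytosolic ribosomal protein genes gave 1 higher of 83, with 82 fitted changes above 0 and a median of 0.27. The call, of Rplp1 (0.63 ± 0.16, adjusted p = 0.03), was lost without control 82B, 8A, 8C or 8D or treated 18B, 20B or 80B (adjusted p of 0.0618 to 0.0772), and 3 were higher without treated 18D and 2 without treated 20D. Of 19 nuclear-retained RNAs and hosts of small nucleolar RNAs, the 2 higher were Meg3 and Rian, and Malat1, among the most abundant, averaged 11801 ± 3536 CPM in PB and 11934 ± 735 CPM in Con. In that list 2 were lower without treated 18D and 1 without treated 20D.

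**Figure D4:**
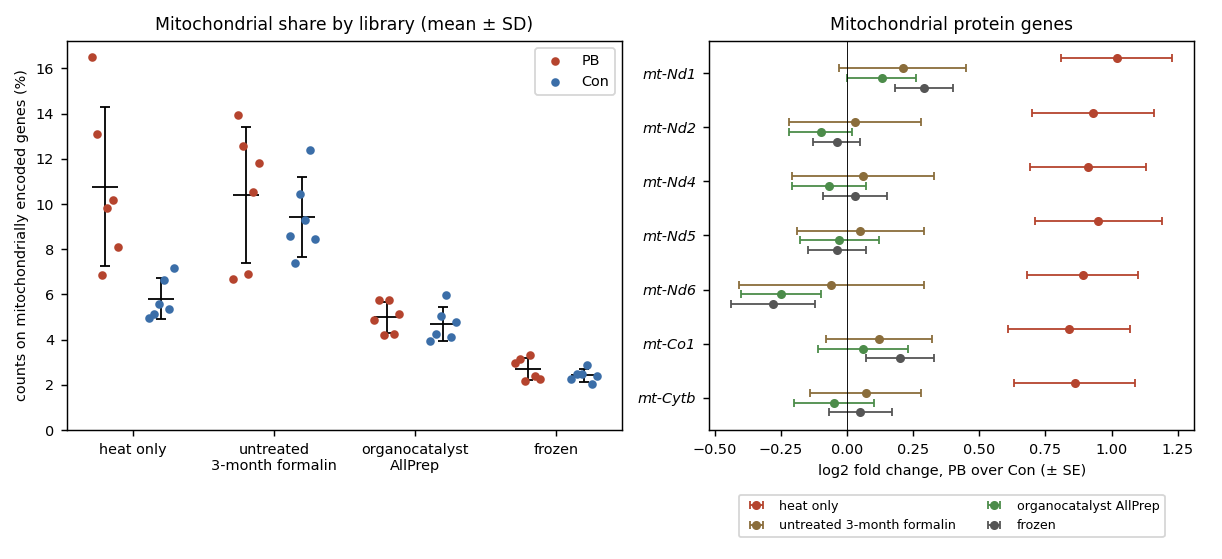
Left, percent of counts on mitochondrially encoded genes (y axis from 0) for PB and Con libraries in 4 states of the same 12 livers, 1 point an animal, with mean ± SD; right, log2 fold change of PB over Con ± SE of 7 mitochondrial protein genes (rows) in each state (colours). Heat-only PB libraries average 10.76% against 5.815% in Con, and the heat-only fold changes of 0.84 to 1.02 lie right of those in the other states.

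In the other states of the same livers the treatment groups had closer mitochondrial shares. They averaged 10.4% in PB and 9.43% in Con in untreated 3-month formalin, 5.00% in PB and 4.68% in Con with the organocatalyst, and 2.70% in PB and 2.43% in Con in frozen liver. The untreated 3-month formalin library of control 8A was shallow, with 1264563 counts against 6257294 to 10217453 in the rest of that state. Taken per animal, the heat-only share minus the organocatalyst share was 5.76 ± 3.4 points in PB and 1.14 ± 0.663 points in Con, a difference of 4.62 points with all 6 PB animals above all Con animals (exact permutation test, adjusted p = 0.00649 over 3 comparisons). Against frozen liver it was 8.06 ± 3.24 points in PB and 3.39 ± 0.796 points in Con (difference 4.67, adjusted p = 0.00649). Against untreated 3-month formalin it was 0.344 ± 5.49 points in PB and -3.61 ± 2.08 points in Con, which did not pass (difference 3.96, exact permutation p = 0.123). This comparison of shares was added after seeing the data.

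Gene by gene, a phenobarbital effect that differed between heat-only liver and another state was not called without the animal term: 0 of 14130 genes against untreated 3-month formalin, 0 of 14550 against the organocatalyst and 0 of 14717 against frozen liver (0% each, edgeR interaction test), where 335, 455 and 662 genes had an unadjusted p under 0.05 and limma voom also called 0. The same 12 animals gave both libraries of each comparison, and with the animal as a replicate block 0 (0%), 19 (0.131%) and 9 (0.0612%) genes were called. Of the 19 against the organocatalyst 8 were mitochondrially encoded, all with the larger effect in heat-only liver, and of the 9 against frozen liver 5 were. mt-Nd6 differed by 1.08 ± 0.16 on the log2 scale against the organocatalyst and by 1.10 ± 0.18 against frozen liver, and mt-Tm by 0.92 ± 0.15 and 1.07 ± 0.14. The interferon regulator gene Irf7 was also called against both, by 0.49 ± 0.09 and 0.46 ± 0.09, with a heat-only effect of 0.52 ± 0.14. Since the comparisons share the heat-only libraries, they are not independent of each other. The comparison with untreated 3-month formalin includes the shallow library of control 8A. Without that animal, 0 genes were also called there by edgeR with no animal term.

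No CYP2B, CYP2C or CYP3A gene and no mitotic gene was among those called for a difference between states. The fitted log2 fold change of Cyp3a11 was 5.86 ± 0.46 in heat-only liver, 5.98 in untreated 3-month formalin, 5.87 with the organocatalyst and 5.90 in frozen liver, and that of Ccn4 was 3.28, 2.96, 3.07 and 2.92 in the same order. Among nonmitochondrial genes the largest such difference against frozen liver was in Fam171a1, a membrane protein gene with 19.2, 28.4 and 70.8 CPM in PB against 5.4, 6.31 and 7.09 CPM in Con, whose effect was 2.61 ± 0.29 in heat-only and 1.81 in frozen liver (difference 0.74 ± 0.13 with the animal term). Some list medians were smaller in size in frozen than in heat-only liver. They were -0.17 against -0.39 for PPAR alpha and -0.09 against -0.28 for periportal genes. Secreted protein genes had -0.11 against -0.39 and endothelial genes -0.02 against 0.20. Others were not: the CYP2B, CYP2C and CYP3A list had 3.70 against 3.18, the mitosis list 2.38 against 2.35 and the histone list 0.36 against 0.17. These differences between medians were not tested. A p that misses the threshold does not show equal effects.

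The called genes were mostly protein coding, with 461 higher and 186 lower of 11899, against 12 higher and 10 lower of 1310 long noncoding genes. Split by GC content, in 3 equal classes of protein-coding genes, 4.42% were higher in the low-GC class, 4.34% in the middle class and 2.70% in the high-GC class, while 1.09%, 1.77% and 1.84% were lower. Split by exon length, 3.91%, 4.14% and 3.41% were higher from the shortest to the longest class. The median log2 fold change stayed between -0.01 and 0.03 in all 6 of these classes.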

How the data were processed

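Values are raw read counts per gene that the authors deposited, from total RNA libraries depleted of ribosomal RNA, with a stranded kit per the labels' protocols. Per the submitters' processing notes, STAR 2.5, CASAVA, edgeR and the builds GRCm38 and mm10 were used; which tool counted reads, and with what strand setting, is not stated there or in the labels. Of 47465 lines, 92 were spike-ins, which held 0 counts in the 12 heat-only libraries, and 46954 of 47373 genes matched GENCODE M21, which gave the names and coordinates.

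Each heat-only animal gave 1 library. Genes were filtered with filterByExpr (10 counts), scaled by TMM and tested with edgeR 4.0.16 (quasi-likelihood, R 4.3.3, threshold 0.05); DESeq2 1.42.0 and limma 3.58.1 were alternatives, and the fits were checked on simulated counts. Library measures were compared by exact permutation tests (scipy 1.17.1). Intervals cover counting error only. Libraries of other states pair by animal, as the titles give: over 14130 to 14717 genes all 12 same-animal pairs correlated over 0.1 in their deviations in each comparison (medians 0.301, 0.504 and 0.466). Named genes were those on a fixed list, the 10 largest rises and falls with at least 5 CPM and no overlap, up to 4 called and 2 uncalled per gene list, mitochondrial genes and the first 5 interaction calls; the last part was applied to the fit with the animal term after its values were seen. Of the genes this rule gave, the text names a part. The 39 gene lists and the members were chosen with earlier results of these data known.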

Additional observations from a re-analysis of the deposited data

Results flagged for a closer look

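Single libraries stood apart from the rest of their group in 14 of the 198 groups of 6 values examined, where chance gives about 1 in 20. Among controls, animal 8A was highest in Por (92.6 CPM, next 52), Alas1 (491 CPM, next 186), Pck1 (3306 CPM, next 1554) and Ctcflos (77.3 CPM, next 47.8). Control 21C was highest in Abcc3 (109 CPM, next 48.9), Nr1i3 (160 CPM, next 82.4), Cyp2e1 (4274 CPM, next 3428) and Slco1a4 (39.9 CPM, next 23.9) and lowest in Ldha (396 CPM, next 487). Control 82B was highest in Cyp2b10 (0.52 CPM, next 0.164). Among treated animals, 18B was lowest in Cyp2c54 (794 CPM, next 1054) and highest in mt-Nd6 (499 CPM, next 291), 20D was highest in Ass1 (632 CPM, next 415) and 18D in Tie1 (29.1 CPM, next 23.1).

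The treatment effect differed between states, with the animal as a block, in these genes. Against the organocatalyst the difference in log2 fold change was 1.08 for mt-Nd6, 0.92 for mt-Nd4 and mt-Tm, 0.96 for mt-Nd2 and 0.83 for Gm13340, an annotated pseudogene on chromosome 2. Against frozen liver it was 1.07 for mt-Tm, 1.10 for mt-Nd6, 0.92 for mt-Nd5, 0.74 for Fam171a1 and 0.46 for Prelp. The mitochondrial share differed in the same direction, by 4.62 percentage points against the organocatalyst and 4.67 against frozen liver. What lies behind these differences was not tested.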

How the results depend on the processing

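The higher count stayed within 1.5 times of 483 under every alternative run, with 325 to 519 when 1 library was left out. The lower count of 205 was 382 in DESeq2 and 84 to 257 when 1 library was left out. Gene effects that differed between states numbered 0 without and, with the animal as a replicate block, 19 against the organocatalyst and 9 against frozen liver (0 against untreated formalin); the cause was not tested. The mitochondrial share difference was 3.79 to 5.72 points when 1 library was left out. Its p adjusted over 9 measures (exact permutation test) stayed under 0.05 in 2 of these 12 cases and was 0.0584 or 0.0779 in the other 10. Fewer splits remain in these cases, so the smallest p the test can give is larger. No named gene changed direction, and 69 of 111 called ones kept their call in every alternative. Without 18B and 18D, chosen after seeing the data, 13 CYP2B, CYP2C and CYP3A genes and 30 mitotic genes were higher, among 523 higher genes in all. The count filter was applied anew there, so the genes tested differ from those of the main fit. Counts of the 2 fits cannot be set side by side. The filter was also applied anew in each fit that left out 1 library. List counts of those fits share this limit, since their tested genes can differ from those of the main fit. Mitochondrial ribosomal RNAs alone could not be used, since they are not analysed here. Genes below the count filter, such as most histone genes, are limited by depth.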

Other observations

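Treated 20B and 80B also stood apart from the other 4 treated animals in lists other than mitosis. Acute phase genes summed to 47914 CPM in 20B and 50890 CPM in 80B, to 8787 to 25178 CPM in the other 4 PB libraries and to 16144 to 47201 CPM in Con. The heme carrier gene Hpx, itself an acute phase protein, ran between 1012 and 8430 CPM in PB and between 1418 and 7446 CPM in Con. Cytosolic ribosomal protein genes summed to 9421 and 10025 CPM in the same pair, to 4900 to 7911 CPM in the other PB libraries and to 5436 to 6576 CPM in Con. Replication-dependent histone genes, which were not called as a group difference, summed to 270 and 280 CPM in the pair, to 179 to 195 CPM in the other PB libraries and to 179 to 207 CPM in Con. Nuclear-retained RNAs ran the other way, with 10271 and 8725 CPM in the pair and 14259 to 20179 CPM in the other PB libraries. These sums were compared after seeing the data, so they are descriptions of single animals without a test.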
